A study of Mus musculus with 50 samples.

Results

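The TRIM family was taken as every protein-coding gene whose symbol is Trim followed by a digit, and 68 of the 55416 genes in the count table met that rule. Of these, 32 were expressed, which here means a mean of at least 0.5 TPM over the 50 libraries (TPM is a level scaled for gene length and depth), and 36 were not. The rule used levels averaged over all libraries and no comparison between groups. RNA was sequenced from RAW264.7 cells, a mouse macrophage line, that carried CRISPR edits of the kinase genes SGK1 and SGK3. The edited lines were a double knockout (dKO), an SGK3 knockout (SGK3KO) and an SGK1 knockout (SGK1KO), and the control line (WT) carried a control guide RNA. Cells were left at rest or given 10 µg/mL of DMXAA, an agonist of mouse STING, for 2 h, and 1 group of WT cells had 500 nM of the SGK inhibitor Sanofi-14h for 2 h before DMXAA. All groups were of the same parental line.

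The groups fall into batches that the labels name. Batch b1 held dKO with DMXAA (5 libraries), SGK3KO with DMXAA (5) and at rest (3), WT with inhibitor and DMXAA (5), WT with DMXAA (5) and WT at rest (3). Batch b2 held dKO with DMXAA (3) and at rest (3), SGK1KO with DMXAA (4) and at rest (3), and WT with DMXAA (4) and at rest (3). Batch b3 held 4 libraries marked as reruns, which entered no main comparison. The labels name 1 line per genotype and do not say whether it was a clone, so each knockout effect is that of 1 line. They mention vehicle (DMSO) pretreatment without saying which libraries had it, so the inhibitor was compared with WT cells given DMXAA alone as labelled.

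TRIM proteins share a RING finger, B-box domains and a coiled coil, and in most members the RING transfers ubiquitin from an E2 enzyme to a target that the C-terminal domain selects. Many members are induced by interferon, and some restrict viruses directly while others raise or restrain the sensors, adaptors and kinases that lead to interferon and NF-κB. In the mouse a run of related genes next to each other on chromosome 7, among them Trim5, Trim12, Trim30 and Trim34 genes, holds many of the antiviral members.

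Libraries held 57859509 to 101068327 counts in b1 and 63461414 to 112007140 in b2. All 7 macrophage markers were detected in every library, with Lyz2 at 5071 to 10929 TPM, and the B cell marker Ms4a1 was listed at 0 in all libraries. The 7 markers of other cell types summed to at most 4.69 TPM in any library. Sgk1 was at 3.07 to 6.02 CPM (counts scaled to library size after TMM, for use within a gene) in dKO cells with DMXAA and 46.4 to 54.8 CPM in WT cells with DMXAA in b1. In b2 it was at 1.79 to 6.67 CPM in SGK1KO cells with DMXAA, against 24.7 to 38.1 CPM in WT cells with DMXAA. Sgk3 RNA did not mark the edited lines, at 99.4 to 112 CPM in SGK3KO cells with DMXAA and 97.4 to 109 CPM in WT cells with DMXAA, so the SGK3 edit cannot be checked from gene-level counts. In b2, log2 CPM against the batch mean rose with transcript length by over 0.1 for each doubling in 6 of the 13 knockout libraries (dKO X and H, SGK1KO P, R, E and F) and 0 of the 7 WT libraries. It fell by over 0.1 in 4 knockout and 5 WT libraries, so the trend moved with genotype, and its part in the b2 results was not tested beyond leaving out those 6 libraries.

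Expressed members spanned a wide range of levels. Trim28, the KRAB zinc-finger corepressor also called KAP1, had the highest mean at 239.5 TPM over all 50 libraries (range 181 to 349.8). Trim25, a ligase that modifies the RNA sensor RIG-I, followed at 134 TPM (range 75.2 to 217), and Trim8, which acts on NF-κB signalling in human cells, at 102 TPM (range 56.1 to 138). These ranges did not overlap between Trim28 and Trim8, while Trim25 overlapped both. The remaining members ran down through Trim27 at 81.8 TPM and Trim35 at 57.0 TPM to Trim34b, Trim34a and Trim47 at 0.752, 0.6001 and 0.577 TPM. Among all of them Trim30a, at a mean of 12.3 TPM, had a range from 0.544 to 40.6 TPM, which was wide beside that of the members next to it in rank, Trim23 (8.57 to 18.03 TPM) and Trim24 (7.36 to 18.9 TPM).

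**Figure D1:**
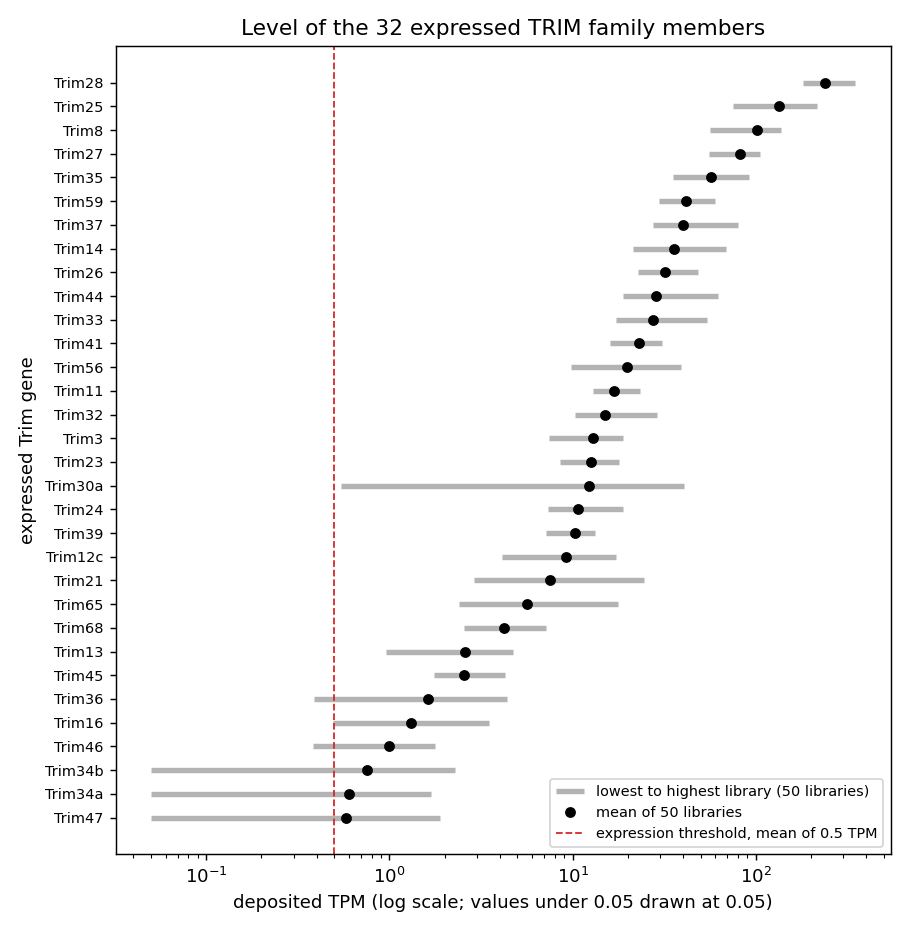
Level of each of the 32 expressed members in deposited TPM on a log axis, with the mean over 50 libraries as a point and the lowest to highest library as a bar. Trim28 stands at the top with a mean of 239.5 TPM, and Trim30a, Trim34a, Trim34b and Trim47 have the long bars.

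Of the 36 members under the threshold, 11 had no count in any library: Trim6, Trim9, Trim29, Trim31, Trim40, Trim42, Trim52, Trim54, Trim61, Trim63 and Trim80. The other 25 were Trim2, Trim5, Trim7, Trim10, Trim12a, Trim15, Trim17, Trim30b, Trim30c, Trim30d, Trim38, Trim43a, Trim43b, Trim43c, Trim50, Trim55, Trim58, Trim60, Trim62, Trim66, Trim67, Trim69, Trim71, Trim72 and Trim75. Trim15 (0.368 TPM), Trim62 (0.346 TPM) and Trim69 (0.335 TPM) had the highest means under the threshold, and Trim47 (0.577 TPM) the lowest above it. Means of these 25 ran from 0.000505 TPM for Trim60 up to that of Trim15, and the highest single library was 2.39 TPM, for Trim69. Muscle members such as Trim54 and Trim63 were among those with no count.

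Counts were tested with edgeR's quasi-likelihood test in each batch, and a gene was called at an adjusted p (Benjamini-Hochberg over all genes tested) under 0.05. Of the 32 expressed members, 29 were called in at least 1 of the 13 comparisons, beside 63.8% of the 15919 genes tested in both batches. Trim39, Trim46 and Trim68 were called in none. The expressed members were chosen by mean TPM, and the genes they are set beside were not. The 63.8% and the shares of all genes given below are therefore not matched for level, and the part of level was not tested. A value after ± is an SE unless an SD is named. With DMXAA in WT cells of b1, 12 members rose and 10 fell. Of the 16947 genes tested there, 17.9% up and 17.4% down, 35.3% in all, were called. In SGK3KO cells, 9 rose and 10 fell with DMXAA, where the shares of all genes were 16.4% up and 13.7% down, 30.1% in all. In b2, Trim25 and Trim8 rose in WT cells with DMXAA, 2 members where the shares of the 16622 genes tested were 2.52% up and 1.46% down, 3.98% in all. In SGK1KO cells 3 rose and 5 fell (all genes 5.89% up and 5.28% down, 11.2% in all). In dKO cells 4 rose and 1 fell (all genes 4.31% up and 2.45% down, 6.76% in all).

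Between lines at rest, 3 members were higher and 5 lower in SGK3KO than in WT cells (all genes 5.84% up and 4.6% down, 10.4% in all). In SGK1KO cells 1 was higher and 3 lower (all genes 3.28% up and 3.15% down, 6.43% in all), and in dKO cells of b2 2 were higher and 3 lower (all genes 1.16% up and 1.87% down, 3.03% in all). With DMXAA, 6 were higher and 10 lower in SGK3KO than in WT cells (all genes 13.3% up and 9.59% down, 22.9% in all). In dKO cells of b1, 7 were higher and 10 lower (all genes 14.5% up and 11.9% down, 26.4% in all). In b2, 2 were higher and 5 lower in SGK1KO cells (all genes 4.66% up and 4.07% down, 8.72% in all), and 3 higher and 5 lower in dKO cells (all genes 6.43% up and 6.41% down, 12.8% in all). With the inhibitor before DMXAA, 5 members were higher and 8 lower than with DMXAA alone (all genes 10.6% up and 10.1% down, 20.8% in all). The median log2 fold change of the expressed members lay between -0.18 and 0.13 in all 13 comparisons and the 3 differences of responses (how far the DMXAA response of a line differs from that of WT), beside medians of all genes between -0.02 and 0.01. Comparisons of a batch share WT libraries and are not independent of each other.

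**Figure D2:**
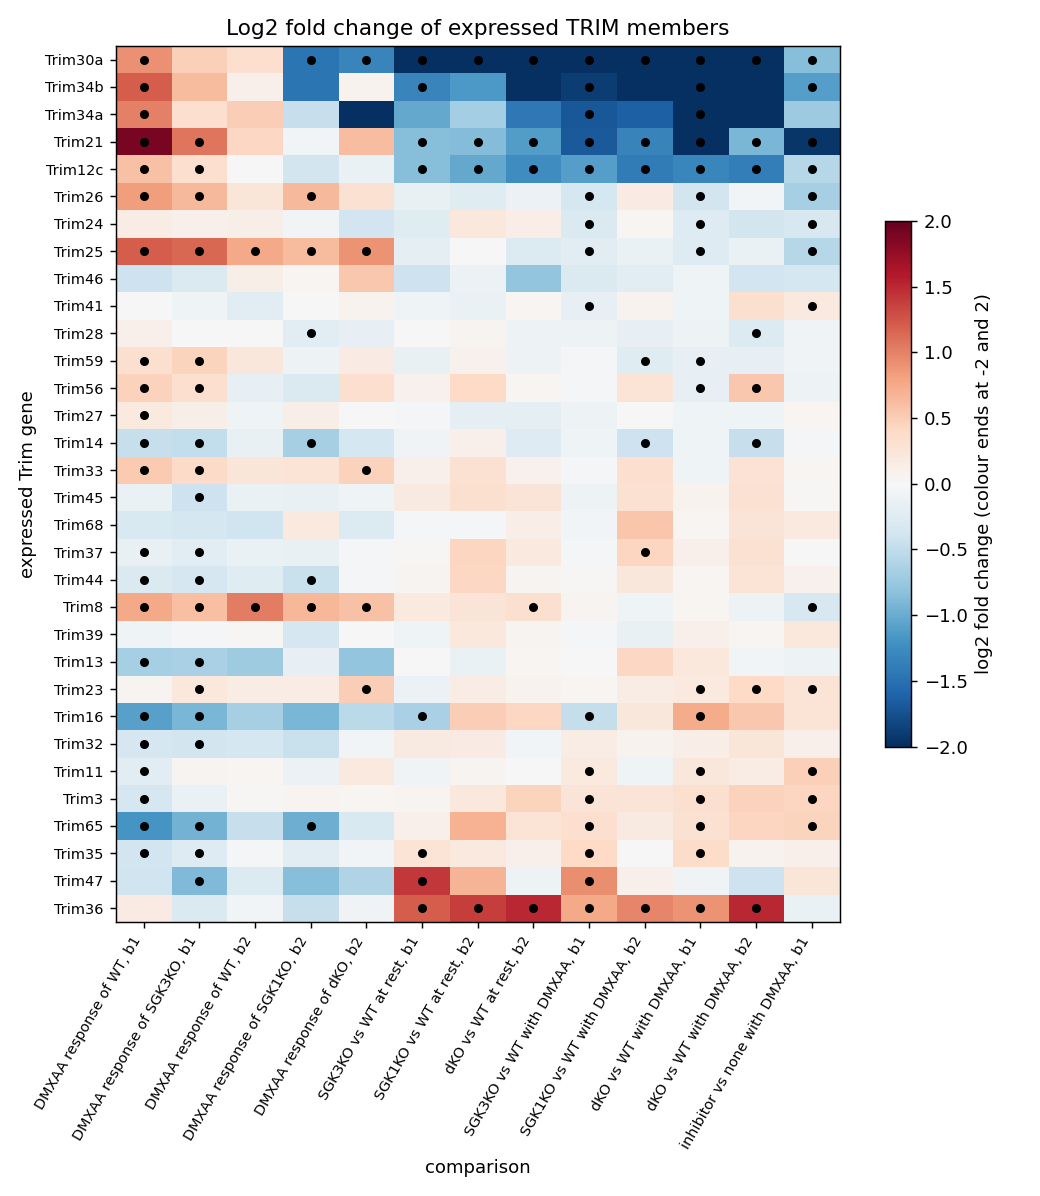
Log2 fold change of the 32 expressed members (down the page) in the 13 comparisons (across), red where the named line or treatment was higher and blue where it was lower, with a black point where edgeR's adjusted p was under 0.05. Trim30a, Trim21 and Trim12c carry points in all 7 columns of knockout against WT cells, and Trim36 does so in the other direction.

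Some macrophage markers were called between the lines. Against WT with DMXAA in b1, 2 of 7 were lower in dKO cells (all genes 11.9% down and 14.5% up, 26.4% in all). In SGK3KO cells 2 were lower and 1 higher (all genes 9.59% down and 13.3% up). With the inhibitor before DMXAA, 4 of 7 were lower than with DMXAA alone (all genes 10.1% down). In b2, 4 of 7 were lower in dKO cells (all genes 6.41% down). In SGK1KO cells 2 were lower and 1 higher (all genes 4.07% down and 4.66% up). Their summed level in b1 was 6576 to 8275 TPM in dKO, 7232 to 8604 TPM in SGK3KO, 6621 to 7493 TPM in inhibitor-treated and 7279 to 8006 TPM in WT libraries with DMXAA. The b2 sums were 7372 to 8398 TPM in dKO and 8406 to 9244 TPM in SGK1KO libraries, under all WT libraries at 11967 to 13296 TPM. Lyz2 had the highest median of the list over all libraries, 6581 TPM, and Csf1r the next, 815 TPM. The sums therefore largely follow Lyz2 alone. Fcgr1, an Fc receptor gene that interferon induces, had a log2 fold change of -1.55 ± 0.06 (adjusted p = 1.64e-20) in dKO, -1.63 ± 0.06 (adjusted p = 5.13e-21) in SGK3KO and -0.65 ± 0.05 (adjusted p = 1.54e-10) in inhibitor-treated cells of b1. Of the markers of other cell types, Siglech, known from plasmacytoid dendritic cells, was higher in dKO than in WT cells with DMXAA in both batches. It was at 3.77 ± 1.09 CPM in dKO and 0.671 ± 0.168 CPM in WT cells of b1 (SD, n = 5 each, log2 fold change 2.49 ± 0.29, adjusted p = 3.34e-08). In b2 it was at 2.16 ± 0.693 CPM in dKO and 0.0723 ± 0.0707 CPM in WT cells (SD, n = 3 and 4), the WT value being under the limit of 3 read pairs. It was also called higher in SGK1KO cells of b2 (adjusted p = 0.0437), at 0.917 ± 0.770 CPM (SD, n = 4), where the libraries overlapped WT. The summed list was at 1.53 to 4.69 TPM in dKO and 0.532 to 0.791 TPM in WT libraries of b1. The b2 sum was 1.54 to 3.26 TPM in dKO, 0.128 to 1.71 TPM in SGK1KO and 0.0423 to 0.398 TPM in WT libraries, with Ms4a1 at 0. The part of these markers in the TRIM results was not tested.

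Of the 68 members, 10 lie side by side at chr7:103868000-104157056 on GRCm39, and 4 of these 10 were expressed: Trim34a (chr7:103893664-103911441, + strand), Trim34b (chr7:103978678-103986116, + strand), Trim12c (chr7:103987961-104002569, - strand) and Trim30a (chr7:104058232-104114400, - strand). Trim21 (chr7:102207128-102214693, - strand) lies apart from this run on the same chromosome. Called changes of these 5 genes were in 1 direction between lines. No knockout line, and no inhibitor group, had a called rise of any of them over its WT group. The 5 were grouped with earlier results of these data known, so the shared direction describes this choice of genes and not the region. Trim3 lies nearer to the run than Trim21 and was called higher than WT with DMXAA in dKO, SGK3KO and inhibitor-treated cells of b1. Trim68, which lies near Trim21, was called in no comparison. Promoter sequences of these 5 genes and of Trim47 are shown so that the interferon-type element near their starts can be read beside the values. They are RefSeq entries on GRCm38.p6, 250 bases before to 50 bases after the start, written 5′ to 3′ on the gene's strand. Capitals mark each match to GAAA, 2 bases of any kind and GAAA again, or on the other strand TTTC, 2 bases and TTTC, the core of an interferon-stimulated response element.
Trim30a at chr7:104465144-104465443, - strand: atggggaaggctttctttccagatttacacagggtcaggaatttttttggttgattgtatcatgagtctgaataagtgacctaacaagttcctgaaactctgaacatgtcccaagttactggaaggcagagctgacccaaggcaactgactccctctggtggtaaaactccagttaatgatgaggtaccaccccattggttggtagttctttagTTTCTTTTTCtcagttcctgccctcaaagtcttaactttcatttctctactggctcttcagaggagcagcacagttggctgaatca
Trim34a at chr7:104244207-104244506, + strand: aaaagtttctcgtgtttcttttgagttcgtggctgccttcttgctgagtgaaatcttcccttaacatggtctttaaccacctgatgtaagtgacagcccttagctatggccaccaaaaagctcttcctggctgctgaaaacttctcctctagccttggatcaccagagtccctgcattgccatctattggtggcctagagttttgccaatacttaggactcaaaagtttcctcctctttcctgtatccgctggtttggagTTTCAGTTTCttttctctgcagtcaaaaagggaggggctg
Trim34b at chr7:104329221-104329520, + strand: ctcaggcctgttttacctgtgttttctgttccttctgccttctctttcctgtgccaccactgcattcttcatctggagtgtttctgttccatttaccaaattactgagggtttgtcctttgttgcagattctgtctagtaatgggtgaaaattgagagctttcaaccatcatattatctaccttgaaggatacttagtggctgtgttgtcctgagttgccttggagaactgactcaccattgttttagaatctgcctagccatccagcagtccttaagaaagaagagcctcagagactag
Trim21 at chr7:102565433-102565732, - strand: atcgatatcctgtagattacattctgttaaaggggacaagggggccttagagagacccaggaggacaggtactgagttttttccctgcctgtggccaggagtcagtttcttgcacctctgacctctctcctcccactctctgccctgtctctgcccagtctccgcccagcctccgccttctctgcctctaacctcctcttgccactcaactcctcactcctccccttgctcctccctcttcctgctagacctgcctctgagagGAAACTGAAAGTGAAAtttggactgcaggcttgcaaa
Trim12c at chr7:104353300-104353599, - strand: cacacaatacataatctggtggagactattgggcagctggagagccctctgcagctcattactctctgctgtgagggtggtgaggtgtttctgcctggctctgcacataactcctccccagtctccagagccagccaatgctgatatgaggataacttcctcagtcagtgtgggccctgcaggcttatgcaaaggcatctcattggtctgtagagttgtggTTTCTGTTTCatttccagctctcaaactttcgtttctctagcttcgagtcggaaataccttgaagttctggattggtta
Trim47 at chr11:116110186-116110485, - strand: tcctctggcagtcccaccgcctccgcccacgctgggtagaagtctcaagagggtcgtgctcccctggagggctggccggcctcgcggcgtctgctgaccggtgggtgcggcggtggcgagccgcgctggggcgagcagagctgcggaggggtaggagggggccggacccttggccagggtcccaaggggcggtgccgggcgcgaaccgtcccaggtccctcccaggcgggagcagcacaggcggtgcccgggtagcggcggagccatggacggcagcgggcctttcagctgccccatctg
The element began 36 bases before the start in Trim30a, 29 bases before it in Trim12c, at base 11 of the transcript in Trim34a and at base 14 in Trim21, where 2 matches overlapped. A second RefSeq start of Trim30a, at chr7:104446076-104446375, also held it, and the windows of Trim34b and Trim47 did not. Of 27025 genes with a promoter entry 3.99% held a match, as did 5 of the 23 expressed members with an entry (Trim12c, Trim21, Trim26, Trim30a and Trim34a). A match describes the letters and does not show binding.

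Trim30a, an interferon-induced member reported in mice to restrain STING and TAB2/TAB3 signalling, had the largest called change between lines among expressed members. With DMXAA in b1 it was at 4.31, 5.74, 5.08, 4.74 and 4.58 CPM in dKO libraries, 4.66, 5.10, 5.09, 4.69 and 4.42 CPM in SGK3KO libraries and 57.2, 78.5, 78.7, 73.4 and 57.6 CPM in WT libraries. At rest in b1 it was at 2.98, 3.60 and 3.73 CPM in SGK3KO libraries and 51.0, 30.3 and 29.0 CPM in WT libraries. All knockout libraries lay under all WT libraries, stimulated or not, by a wide margin. The log2 fold change was -3.83 ± 0.18 (adjusted p = 9.04e-14) for dKO over WT with DMXAA, -3.85 ± 0.18 (adjusted p = 1.24e-13) for SGK3KO over WT with DMXAA and -3.42 ± 0.23 (adjusted p = 2.81e-10) for SGK3KO over WT at rest. In bulk RNA, fewer cells with the transcript and less transcript per cell cannot be told apart, here and in what follows.

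In b2, Trim30a with DMXAA was at 1.11, 1.05 and 3.26 CPM in dKO libraries, 2.41, 3.48, 4.28 and 5.89 CPM in SGK1KO libraries and 53.4, 62.8, 56.3 and 59.9 CPM in WT libraries. At rest it was at 4.20, 4.95 and 4.51 CPM in dKO libraries, 11.2, 10.5 and 11.6 CPM in SGK1KO libraries and 48.6, 43.2 and 46.6 CPM in WT libraries. The groups of knockout and WT libraries again did not overlap. Log2 fold changes against WT with DMXAA were -5.00 ± 0.36 (adjusted p = 6.61e-09) in dKO and -3.85 ± 0.29 (adjusted p = 2.23e-08) in SGK1KO cells. At rest they were -3.34 ± 0.33 (adjusted p = 1.41e-06) in dKO and -2.06 ± 0.31 (adjusted p = 0.000458) in SGK1KO cells.

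The response of Trim30a to DMXAA was called as a fall in the knockout lines of b2 and was not called in WT cells of b2. WT cells of b1, where it was called as a rise, are of another batch, so line and batch cannot be told apart in that contrast. Trim30a rose by 0.91 ± 0.18 (adjusted p = 0.000368) in WT cells of b1, and its change was 0.33 ± 0.28 (adjusted p = 0.833) in WT cells of b2 and 0.48 ± 0.21 (adjusted p = 0.102) in SGK3KO cells, which were not called. Its log2 change was -1.46 ± 0.29 (adjusted p = 0.0019) in SGK1KO cells and -1.32 ± 0.32 (adjusted p = 0.0157) in dKO cells, both called as falls. The dKO call is lost without dKO library T, U, H or I, at adjusted p = 0.0834, 0.105, 0.0606 and 0.0555, and over all 6 left-out libraries adjusted p ran from 2.52e-05 to 0.105. With the rerun libraries of b3 joined to b2 neither fall is called, at -0.63 in dKO (adjusted p = 0.572) and -0.996 in SGK1KO cells (adjusted p = 0.128). Fitted from the compared groups alone, the dKO fall is not called either (adjusted p = 0.212). Without dKO library X the dKO fall is -2.06, and the difference of dKO from WT with DMXAA is -5.75. Tested as a difference of responses, SGK1KO minus WT was -1.79 ± 0.40 (adjusted p = 0.0566) and dKO minus WT was -1.65 ± 0.43 (adjusted p = 0.0952), neither of them called. With the inhibitor before DMXAA, Trim30a was at 25.2, 36.8, 40.8, 49.3 and 39.1 CPM, under each of the WT libraries with DMXAA alone, a log2 difference of -0.85 ± 0.15 (adjusted p = 0.000325).

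Trim12c, a mouse gene of the Trim5 group, was lower in every knockout group than in its WT group. In b1 with DMXAA it was at 11.9, 11.7, 10.6, 11.2 and 10.4 CPM in dKO and 12.5, 13.5, 13.4, 13.9 and 11.4 CPM in SGK3KO libraries. Inhibitor-treated WT libraries had 16.4, 17.1, 18.2, 22.0 and 19.4 CPM, and WT libraries 24.2, 28.6, 28.5, 27.6 and 29.6 CPM. Resting cells had it at 10.9, 8.82 and 11.0 CPM in SGK3KO and 22.5, 16.7 and 15.9 CPM in WT libraries. With DMXAA, the dKO, SGK3KO and inhibitor-treated libraries each lay wholly under the WT libraries. Log2 fold changes were -1.31 ± 0.09 (adjusted p = 3.2e-13) for dKO, -1.10 ± 0.09 (adjusted p = 2.2e-11) for SGK3KO and -0.57 ± 0.09 (adjusted p = 1.29e-05) for the inhibitor, all with DMXAA, and -0.84 ± 0.12 (adjusted p = 2.49e-06) for SGK3KO at rest.

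In b2, Trim12c with DMXAA was at 7.84, 12.2 and 13.3 CPM in dKO and 9.37, 11.4, 11.5 and 11.7 CPM in SGK1KO libraries, against 26.4, 28.8, 27.7 and 33.3 CPM in WT libraries. At rest it was at 10.9, 15.0 and 10.7 CPM in dKO and 13.98, 12.3 and 16.3 CPM in SGK1KO libraries, against 26.8, 29.0 and 31.0 CPM in WT libraries. No knockout library reached a WT library. The log2 fold changes were -1.38 ± 0.17 (adjusted p = 9.9e-06) and -1.40 ± 0.16 (adjusted p = 3.19e-06) with DMXAA, for dKO and then SGK1KO cells. At rest they were -1.25 ± 0.18 (adjusted p = 0.000148) in dKO and -1.03 ± 0.18 (adjusted p = 0.00165) in SGK1KO cells. Within lines, Trim12c rose with DMXAA by 0.59 ± 0.10 (adjusted p = 2.5e-05) in WT cells of b1 and by 0.34 ± 0.11 (adjusted p = 0.0139) in SGK3KO cells. The SGK3KO rise is lost without SGK3KO library 2 at rest (adjusted p = 0.145, range over the left-out libraries 0.00489 to 0.145). It is also lost with limma on TPM with pseudocounts of 0.5 and 0.1 (0.12 and 0.13, adjusted p = 0.458 and 0.447) and in the joint fit of both batches (0.33, adjusted p = 0.0886). The SGK1KO call at rest is lost with limma (adjusted p = 0.0775 to 0.0807). No response of Trim12c was called in b2.

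Trim34a and Trim34b, the pair of genes related to the interferon-induced human TRIM34, were low, and the count table does not say how reads shared between them were divided. Trim34b with DMXAA in b1 was at 0.202, 0.296, 0.348, 0.342 and 0.631 CPM in dKO and 0.433, 0.581, 0.511, 0.195 and 0.647 CPM in SGK3KO libraries. Inhibitor-treated WT libraries had 0.608, 1.07, 0.965, 0.717 and 0.7504 CPM, and WT libraries 1.57, 1.63, 1.34, 2.28 and 2.08 CPM. Trim34a was at 0.393, 0.390, 0.443, 0.0621 and 0.416 CPM in dKO and 0.456, 0.387, 0.632, 0.901 and 0.395 CPM in SGK3KO libraries with DMXAA. It was at 0.760, 1.36, 0.799, 1.33 and 1.11 CPM in inhibitor-treated WT and 1.24, 1.70, 1.64, 1.82 and 2.52 CPM in WT libraries. Both knockout groups lay under WT for both genes, and the inhibitor group did so for Trim34b only. Against WT with DMXAA, the log2 fold changes of Trim34b were -2.29 ± 0.32 (adjusted p = 8.92e-07) in dKO, -1.90 ± 0.31 (adjusted p = 1.58e-05) in SGK3KO and -1.11 ± 0.30 (adjusted p = 0.00719) with the inhibitor. Those of Trim34a were -2.38 ± 0.35 (adjusted p = 2.21e-06) in dKO and -1.69 ± 0.33 (adjusted p = 0.000245) in SGK3KO cells, with -0.73 ± 0.32 (adjusted p = 0.111) for the inhibitor, not called.

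At rest in b1, Trim34b was at 0.372, 0.298 and 0.251 CPM in SGK3KO and 1.12, 0.529 and 0.650 CPM in WT libraries, and Trim34a at 0.517, 0.536 and 0.251 CPM in SGK3KO and 1.11, 0.680 and 0.886 CPM in WT libraries. The groups did not overlap for either gene, and the difference was -1.32 ± 0.41 (adjusted p = 0.0352) for Trim34b and -1.03 ± 0.44 (adjusted p = 0.156) for Trim34a, which was not called. The call of Trim34b is lost without WT library 1 (adjusted p = 0.266) or SGK3KO library 1, 2 or 3 (0.0591, 0.111 and 0.137), within a range of 0.0239 to 0.266. It is also lost with no filter, in the compared groups alone and in the joint fit (adjusted p = 0.0598 to 0.421). DMXAA raised Trim34b by 1.21 ± 0.36 (adjusted p = 0.00778) and Trim34a by 1.00 ± 0.39 (adjusted p = 0.0426) in WT cells of b1. For Trim34a that call rests on single libraries, since it is lost without any of 7 of the 8, WT library 1 with DMXAA being the exception (range 0.0308 to 0.171), and for Trim34b it is lost without WT library 2 at rest (adjusted p = 0.0648, range 0.00383 to 0.0648). The Trim34a rise is lost as well with no filter, with a replicate block and in the joint fit (adjusted p = 0.0662 to 0.471). The joint fit also ended the Trim34b rise (adjusted p = 0.154), the Trim34b difference with the inhibitor (0.182) and the Trim34a difference of SGK3KO from WT with DMXAA (0.116).

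In b2, neither of the Trim34 genes was called in any comparison. Trim34b with DMXAA was at 0.250, 0.261 and 0.374 CPM in dKO and 0.397, 0, 0.126 and 0.229 CPM in SGK1KO libraries, against 1.62, 1.61, 0.656 and 1.04 CPM in WT libraries. Trim34a with DMXAA was at 0.109, 0.118 and 0 CPM in dKO and 0.479, 0.626, 0.136 and 0.860 CPM in SGK1KO libraries, against 1.39, 1.53, 1.65 and 1.94 CPM in WT libraries. Both knockout groups lay under WT for both genes, with adjusted p = 0.168 and 0.0506 for Trim34b and 0.0542 and 0.43 for Trim34a (edgeR, dKO before SGK1KO). At rest, Trim34b was at 0.257, 0.455 and 0.133 CPM in dKO and 0.205, 0.382 and 0.966 CPM in SGK1KO libraries, against 1.61, 1.01 and 0.823 CPM in WT libraries. Trim34a at rest was at 0, 0.822 and 0.477 CPM in dKO, 0.465, 0 and 1.71 CPM in SGK1KO and 1.65, 0.926 and 0.904 CPM in WT libraries. The SGK1KO libraries overlapped WT and the dKO libraries did not. Some of these values are under the 3 read pairs that correspond to about 0.166 CPM in dKO libraries with DMXAA, so the sizes of the differences in b2 were not measurable at this depth.

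The 6 other genes of the run were under the expression threshold, and Trim6 had no count. Trim30b had no count in dKO libraries with DMXAA, against a mean of 0.493 CPM in WT libraries with DMXAA in b1, which is at least 2.99-fold lower when 3 read pairs are taken as the limit. Trim30b passed the count filter in b1 and not in b2, and in b1 its counts lay almost wholly in WT libraries with DMXAA. A lower level in the other groups was thus built into its being tested, and is a description only. Trim30c, Trim30d and Trim5 were called lower in dKO and SGK3KO cells with DMXAA in b1, at WT means of 0.494, 0.504 and 0.349 CPM. All these levels are close to the limit of detection, and reads shared with Trim30a could not be told apart. These 4 genes are among the 9 members under the threshold that were called in some comparison, the others being Trim10, Trim15, Trim62, Trim69 and Trim72. Of the members under the threshold, 14 were tested in b1 and 10 in b2. Beside them, 63.8% of the 15919 genes tested in both batches were called in at least 1 comparison. Trim10 and Trim72, like Trim30b, were tested in b1 only. Trim69 was at means of 0.167 CPM in dKO, 0.185 CPM in SGK3KO and 1.78 CPM in WT cells with DMXAA in b1, and Trim15 at 1.10 CPM in WT cells with DMXAA and 0.0331 CPM in WT cells at rest.

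**Figure D3:**
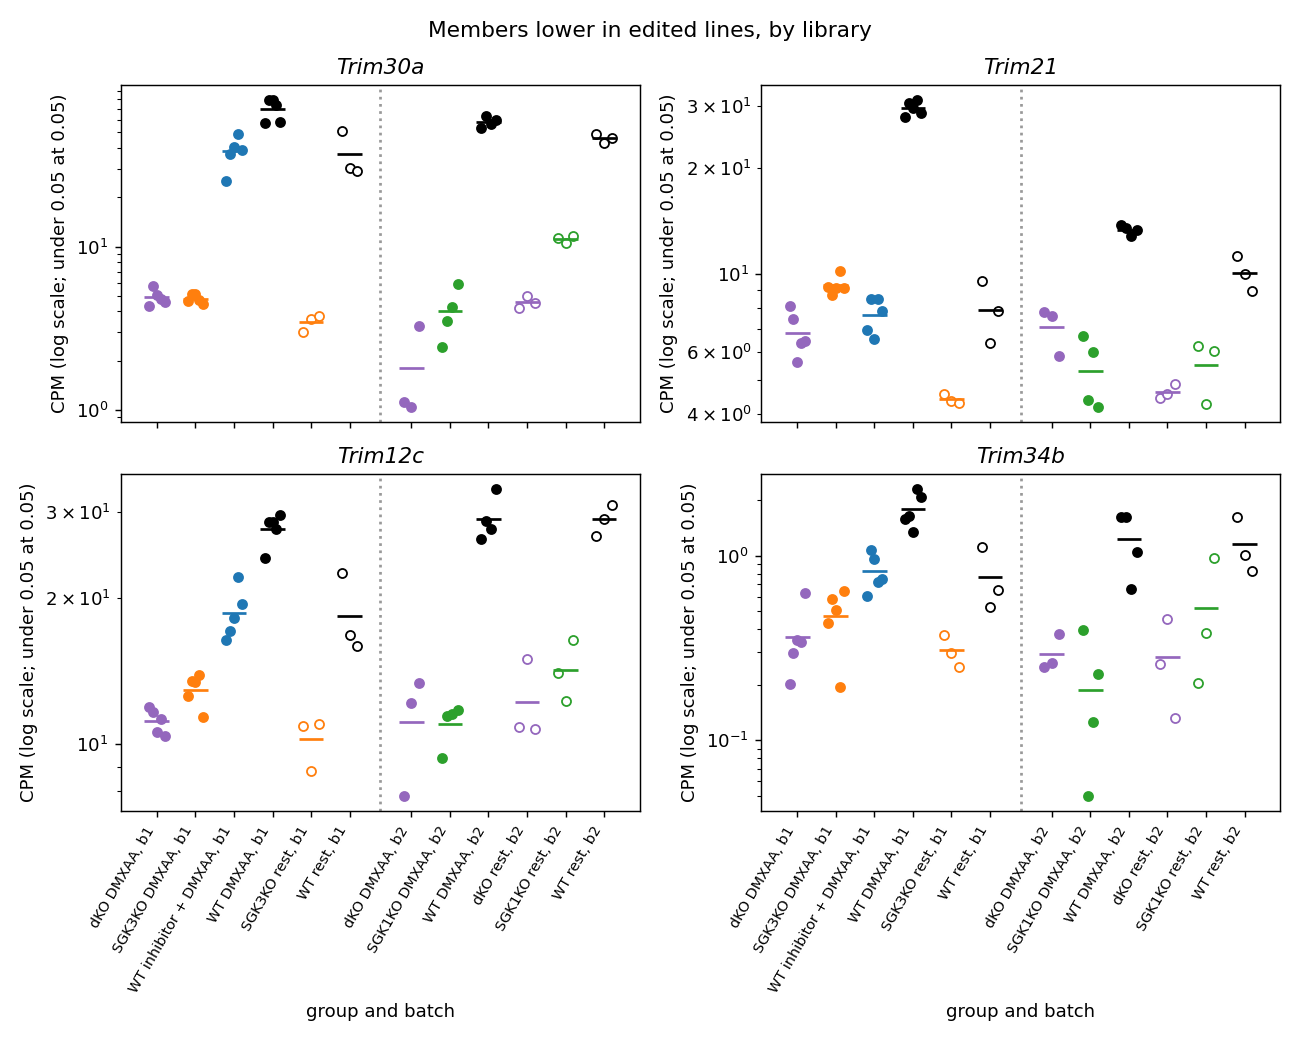
Trim30a, Trim21, Trim12c and Trim34b in each library, in CPM on a log axis, by group and batch, with filled points for DMXAA, open points for rest and a line at the mean of each group. For Trim30a the knockout libraries sit between 1.05 and 11.6 CPM and the WT libraries, inhibitor-treated ones included, between 25.2 and 78.7 CPM.

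Trim21, the cytosolic antibody receptor that sends antibody-bound virus to the proteasome, had the largest called response to DMXAA among expressed members. In b1 it was at 27.9, 30.7, 29.8, 31.2 and 28.7 CPM in WT libraries with DMXAA and 9.56, 6.36 and 7.86 CPM in WT libraries at rest, and rose by 1.90 ± 0.12 (adjusted p = 1.87e-14) on the log2 scale. In SGK3KO cells it was at 9.22, 8.74, 9.13, 10.2 and 9.17 CPM with DMXAA and 4.56, 4.36 and 4.31 CPM at rest, and rose by 1.07 ± 0.12 (adjusted p = 1.19e-08). Neither pair of groups overlapped. The rise in SGK3KO cells was smaller than in WT cells, a difference of -0.83 ± 0.16 (adjusted p = 0.00585), the 1 member whose response differed between lines (0.448% of all genes had a called difference in this direction). It kept its call without each library in turn, and lost it in a joint fit of both batches (-0.84, adjusted p = 0.0552).

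Between lines with DMXAA in b1, Trim21 was at 8.14, 7.47, 5.62, 6.37 and 6.47 CPM in dKO libraries and 6.96, 8.49, 6.54, 8.51 and 7.87 CPM in inhibitor-treated WT libraries, all under the SGK3KO and WT libraries given above. Log2 fold changes against WT with DMXAA were -2.12 ± 0.10 (adjusted p = 2.07e-17) in dKO, -1.67 ± 0.10 (adjusted p = 8.08e-15) in SGK3KO and -1.95 ± 0.10 (adjusted p = 1.63e-15) with the inhibitor. The inhibitor group with DMXAA lay within the spread of WT cells at rest. At rest Trim21 was lower in SGK3KO than in WT cells, with a log2 fold change of -0.85 ± 0.13 (adjusted p = 1.41e-05).

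In b2, Trim21 with DMXAA was at 7.84, 7.61 and 5.84 CPM in dKO and 6.68, 4.39, 6.001 and 4.21 CPM in SGK1KO libraries, against 13.8, 13.6, 12.9 and 13.3 CPM in WT libraries. Resting cells had it at 4.45, 4.57 and 4.89 CPM in dKO and 6.24, 4.27 and 6.06 CPM in SGK1KO libraries, against 11.3, 10.00 and 8.95 CPM in WT libraries. WT cells with DMXAA in b2 thus lay well under WT cells with DMXAA in b1, and the knockout groups stayed under WT. Differences from WT with DMXAA were -0.92 ± 0.18 (adjusted p = 0.0017) in dKO and -1.33 ± 0.17 (adjusted p = 1.63e-05) in SGK1KO cells, and at rest -1.12 ± 0.20 (adjusted p = 0.00117) in dKO and -0.87 ± 0.19 (adjusted p = 0.0129) in SGK1KO cells. The SGK1KO call at rest is lost without SGK1KO library E or WT library A or B (adjusted p = 0.0852, 0.0703 and 0.0519, range 0.00967 to 0.0852). It is also lost in the compared groups alone and without the 6 length-trend libraries (adjusted p = 0.0903 to 0.133). The response in WT cells of b2, 0.41 ± 0.18 (adjusted p = 0.337), was not called, although the groups did not overlap.

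Trim25 rose with DMXAA in every line. In b1 it was at 559, 640.0, 596, 586 and 548 CPM in WT libraries with DMXAA and 274, 248 and 241 CPM in WT libraries at rest. It was at 531, 494, 510.0, 534 and 435 CPM with DMXAA and 225, 227 and 225 CPM at rest in SGK3KO libraries. The log2 rise was 1.20 ± 0.07 (adjusted p = 6.7e-15) in WT and 1.15 ± 0.07 (adjusted p = 3.24e-14) in SGK3KO cells. In b2 it rose by 0.90 ± 0.10 (adjusted p = 2.89e-06) in dKO, 0.63 ± 0.09 (adjusted p = 8.2e-05) in SGK1KO and 0.76 ± 0.09 (adjusted p = 1.6e-05) in WT cells, with no overlap between stimulated and resting libraries of a line. Against WT with DMXAA in b1, its log2 fold change was -0.26 ± 0.06 (adjusted p = 0.00128) in dKO cells (498, 477, 495, 512 and 470.5 CPM), -0.23 ± 0.06 (adjusted p = 0.00478) in SGK3KO cells and -0.57 ± 0.06 (adjusted p = 1.53e-08) with the inhibitor (329, 374, 432, 426 and 408 CPM). Its level in b2 was 371, 429 and 449.6 CPM in dKO and 382, 445, 445 and 386 CPM in SGK1KO libraries, against 437, 438, 479 and 468 CPM in WT libraries with DMXAA. At rest the levels were 224, 235 and 211 CPM in dKO, 231, 277 and 294 CPM in SGK1KO and 272, 251 and 285 CPM in WT libraries. No difference between lines was called.

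Trim8 also rose with DMXAA in every line. It was at 228, 246, 216, 193 and 200.3 CPM with DMXAA and 133, 127 and 126 CPM at rest in WT libraries of b1, a rise of 0.75 ± 0.06 (adjusted p = 1.76e-11). SGK3KO libraries had 221, 214, 237, 239.7 and 209 CPM with DMXAA and 145, 153 and 144 CPM at rest, a rise of 0.60 ± 0.06 (adjusted p = 3.38e-09). In b2 it was at 230.0, 225 and 204 CPM with DMXAA and 146, 153 and 139 CPM at rest in dKO libraries. SGK1KO libraries had 236, 225, 236 and 192 CPM with DMXAA and 137, 140.0 and 141 CPM at rest, and WT libraries 225, 227, 245 and 249 CPM with DMXAA and 117, 109 and 123 CPM at rest. Stimulated and resting libraries did not overlap in any line, and the rises in b2 were 0.59 ± 0.08 (adjusted p = 7.37e-05), 0.67 ± 0.08 (adjusted p = 5.46e-06) and 1.02 ± 0.08 (adjusted p = 3.24e-08), in that order of lines. With DMXAA in b1, dKO libraries (229, 221, 223, 227 and 211 CPM) overlapped WT libraries, while inhibitor-treated libraries (161, 185, 186, 166 and 170.3 CPM) lay under them, a log2 difference of -0.32 ± 0.05 (adjusted p = 4.17e-05). A higher resting level in dKO than in WT cells of b2, 0.32 ± 0.08 (adjusted p = 0.0347), is lost without WT library A, B or C or dKO library G or H (adjusted p = 0.0936, 0.211, 0.0566, 0.0905 and 0.142, range 0.0423 to 0.211). It is lost too with limma, with no filter, in the compared groups alone and with b3 joined (adjusted p = 0.0581 to 0.0659).

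Trim65, a ligase that activates the RNA sensor MDA5, fell with DMXAA. In b1 it was at 5.14, 5.30, 4.89, 5.33 and 5.40 CPM with DMXAA and 10.9, 13.4 and 11.3 CPM at rest in WT libraries, a log2 change of -1.19 ± 0.12 (adjusted p = 7.03e-10). SGK3KO libraries had 6.93, 6.11, 6.68, 6.02 and 7.28 CPM with DMXAA and 13.5, 12.2 and 12.4 CPM at rest, a change of -0.94 ± 0.12 (adjusted p = 1.15e-07). Neither pair overlapped. Its level in b2 was 9.82, 14.4, 10.3 and 9.85 CPM with DMXAA and 19.7, 19.5 and 26.3 CPM at rest in SGK1KO libraries, a log2 change of -0.97 ± 0.21 (adjusted p = 0.00355). It was at 9.73, 11.4 and 18.2 CPM with DMXAA and 12.4, 18.9 and 17.1 CPM at rest in dKO libraries, and neither this nor the WT response was called. WT libraries of b2 had 9.28, 8.15, 9.43 and 12.2 CPM with DMXAA and 13.2, 13.8 and 13.3 CPM at rest. With DMXAA in b1 it was above WT in dKO (6.57, 6.62, 6.79, 5.05 and 7.05 CPM), SGK3KO and inhibitor-treated cells (5.63, 7.86, 6.73, 6.79 and 8.60 CPM), by 0.30 ± 0.11 (adjusted p = 0.0323), 0.34 ± 0.11 (adjusted p = 0.0156) and 0.45 ± 0.11 (adjusted p = 0.00193) in that order. The dKO and WT libraries overlapped, and that dKO call is lost without dKO library 1, 2, 3 or 5 or WT library 1 or 3, within a range of 0.00695 to 0.0837. Limma and the joint fit end the dKO and the SGK3KO call, and no filter and the compared groups alone end the dKO call (adjusted p = 0.0535 to 0.189 for dKO and 0.108 to 0.136 for SGK3KO). Trim65 overlaps Trim47 on the same strand of chromosome 11, so reads of the shared stretch could go to either.

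**Figure D4:**
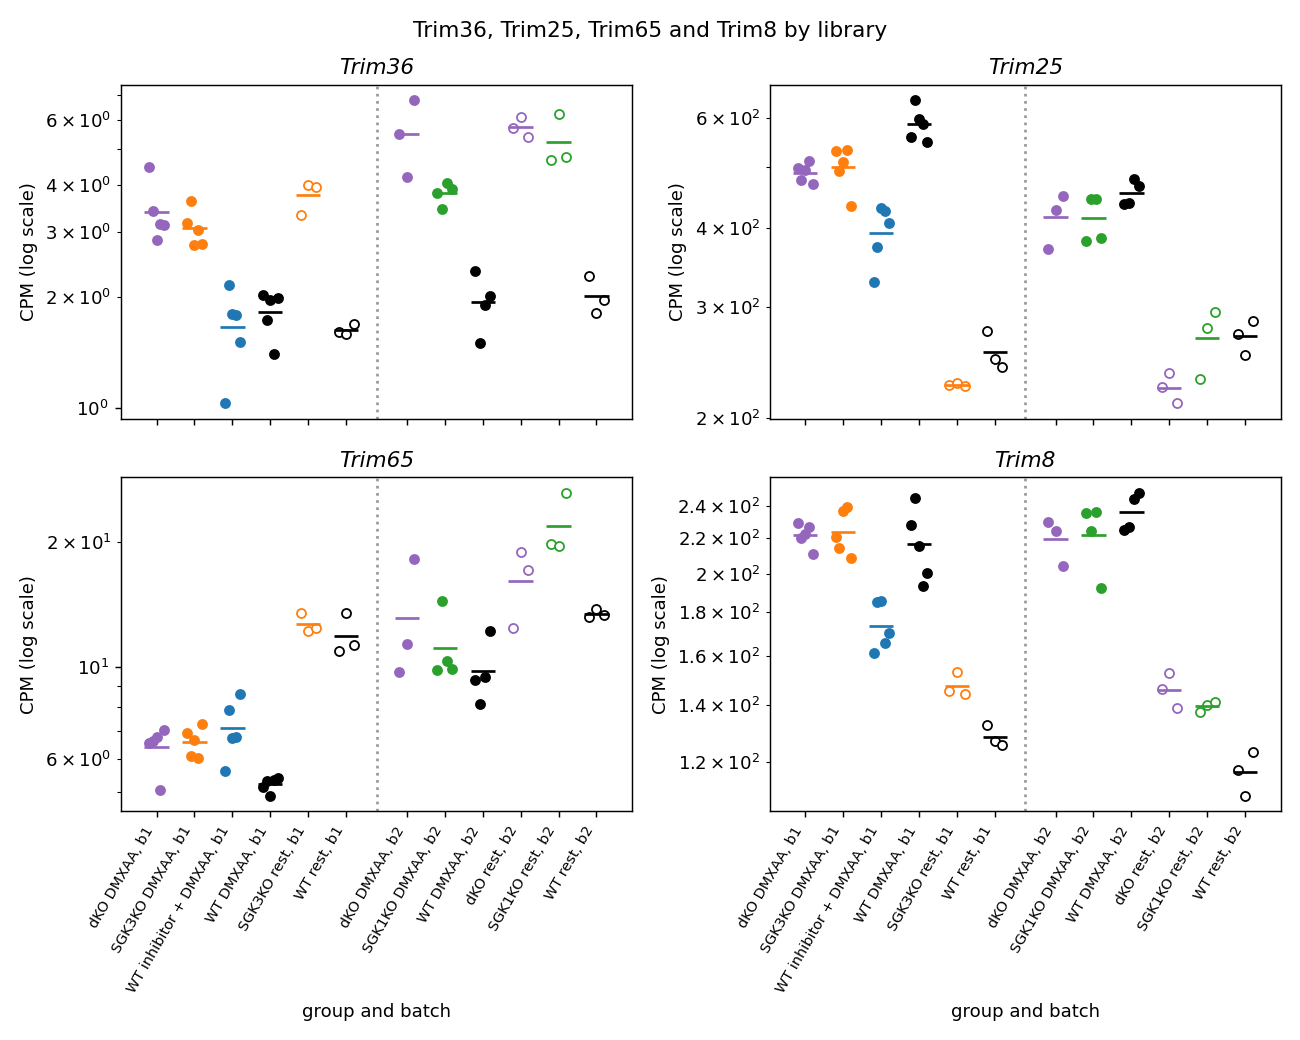
Trim36, Trim25, Trim65 and Trim8 in each library, in CPM on a log axis, drawn as in the plot of the lowered members. Trim25 and Trim8 are higher with DMXAA than at rest in every line, Trim65 is lower with DMXAA in b1, and Trim36 is higher in the knockout lines at rest and with DMXAA.

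The other regulators of innate signalling moved by less. Trim26, which acts on IRF3 signalling, rose with DMXAA in WT cells of b1 to 80.0 ± 5.48 CPM, against 44.9 ± 2.28 CPM at rest (SD, n = 5 and 3, log2 fold change 0.83 ± 0.06, adjusted p = 2.23e-12). It also rose in SGK3KO (0.64 ± 0.06) and SGK1KO cells (0.65 ± 0.10). It was lower than in WT with DMXAA in dKO cells of b1 (-0.36 ± 0.05, adjusted p = 2.7e-06), SGK3KO cells (-0.35 ± 0.05, adjusted p = 6.97e-06) and inhibitor-treated cells (-0.66 ± 0.05, adjusted p = 1.09e-10). Trim56, a ligase linked to cGAS and STING, rose with DMXAA by 0.47 ± 0.07 in WT and 0.34 ± 0.07 in SGK3KO cells of b1. Between dKO and WT with DMXAA, Trim56 was lower in b1 (-0.16 ± 0.06, adjusted p = 0.0368) and higher in b2 (0.54 ± 0.14, adjusted p = 0.0153), opposite calls in the batches. In b2 it was at 19.4, 28.1 and 33.4 TPM in dKO libraries T, U and X and 14.7 to 19.4 TPM in WT libraries, and library T did not lie above all WT libraries. Library X, the highest, is among the length-trend libraries, and no value of Trim56 without it is given here.

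Trim14, an adaptor at MAVS and cGAS, fell with DMXAA in WT (-0.46 ± 0.08) and SGK3KO cells (-0.48 ± 0.08) of b1 and in SGK1KO cells (-0.67 ± 0.13). It was lower with DMXAA in dKO (-0.46 ± 0.13, adjusted p = 0.0199) and SGK1KO cells (-0.42 ± 0.12, adjusted p = 0.0301) than in WT cells of b2. Trim14 overlaps Nans on the opposite strand, and strand was not stated for the counts. Trim13, an endoplasmic reticulum ligase, fell in WT (-0.67 ± 0.22) and SGK3KO cells (-0.65 ± 0.22), and Trim32, a ligase mutated in a human muscular dystrophy, fell in the same lines (-0.34 ± 0.07 and -0.37 ± 0.07). Trim13 (mean 2.58 TPM) overlaps the more abundant Dleu2 (10.0 TPM) on the opposite strand, with the same limit as for Trim14. Trim23, which also carries an ARF-type GTPase domain, rose with DMXAA in SGK3KO (0.21 ± 0.07) and dKO cells of b2 (0.49 ± 0.12). It was above WT with DMXAA in dKO cells of both batches (0.19 ± 0.06 in b1 and 0.40 ± 0.11 in b2) and with the inhibitor (0.28 ± 0.06). Trim27 rose in WT cells of b1 (0.20 ± 0.05) and was called nowhere else. Counted as a list of 12 with 11 expressed, these regulators had 6 rises and 4 falls with DMXAA in WT cells of b1 (median log2 fold change 0.20, beside 0.00 for all genes), where 17.9% of all genes rose and 17.4% fell. In dKO cells against WT with DMXAA in b1, 2 were higher and 4 lower (median -0.09), where 14.5% of all genes were higher and 11.9% lower.

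Of the TIF1 cofactors, which act on chromatin, 3 of 4 were expressed. Of these 3, 1 was called lower in each of the 3 comparisons with WT under DMXAA in b1 and in dKO cells with DMXAA in b2, and none was called in the other comparisons between lines. Of all genes, 11.9% were lower in dKO, 9.59% in SGK3KO and 10.1% in inhibitor-treated cells of b1, and 6.41% in dKO cells of b2. Trim28 was at 359, 349, 354, 359.7 and 374 CPM in dKO and 365, 341, 378, 371 and 345 CPM in SGK3KO libraries with DMXAA in b1. Inhibitor-treated WT libraries had 332, 381, 387, 368 and 362 CPM, and WT libraries 413, 422, 382, 359 and 355 CPM. At rest in b1 it was at 365, 375 and 349 CPM in SGK3KO and 348, 376 and 359 CPM in WT libraries. In b2 it was at 379, 385 and 355 CPM in dKO and 426, 403, 388 and 394 CPM in SGK1KO libraries, against 462, 456, 457 and 427 CPM in WT libraries with DMXAA. Resting levels were 426, 416 and 415 CPM in dKO, 467, 482 and 458 CPM in SGK1KO and 468, 419 and 462 CPM in WT libraries. The b1 groups overlapped throughout, and in b2 all dKO libraries with DMXAA lay under WT, a difference of -0.27 ± 0.06 (adjusted p = 0.00465). That call is lost with limma on TPM (-0.19, adjusted p = 0.171 to 0.177). It also fell with DMXAA in SGK1KO cells, with a log2 change of -0.22 ± 0.06 (adjusted p = 0.0229), a call lost without SGK1KO library E, F or Q (adjusted p = 0.15, 0.0616 and 0.0692, range 0.0214 to 0.15). It is also lost with no filter, in the compared groups alone, with b3 joined and without the 6 length-trend libraries (adjusted p = 0.0633 to 0.306). Trim33 (TIF1γ) rose with DMXAA in WT (0.52 ± 0.06) and SGK3KO cells (0.39 ± 0.06) of b1 and in dKO cells of b2 (0.45 ± 0.13). Trim24 (TIF1α) was lower than in WT with DMXAA in dKO (-0.25 ± 0.08), SGK3KO (-0.29 ± 0.08) and inhibitor-treated cells (-0.32 ± 0.08) of b1, and the fourth TIF1 gene, Trim66, was under the threshold.

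Trim36, a microtubule-associated member at chr18:46298367-46345674, was higher in every knockout group. With DMXAA in b1 it was at 4.47, 3.42, 2.85, 3.14 and 3.12 CPM in dKO and 3.16, 3.62, 2.77, 3.03 and 2.78 CPM in SGK3KO libraries. Inhibitor-treated WT libraries had 1.03, 2.15, 1.80, 1.79 and 1.51 CPM, and WT libraries 2.03, 1.73, 1.97, 1.40 and 1.98 CPM. At rest it was at 3.33, 4.003 and 3.96 CPM in SGK3KO and 1.60, 1.59 and 1.68 CPM in WT libraries. Both knockout lines lay above WT, and the inhibitor group overlapped it. The log2 fold changes were 0.90 ± 0.17 (adjusted p = 9.44e-05) in dKO and 0.75 ± 0.17 (adjusted p = 0.001) in SGK3KO cells with DMXAA and 1.21 ± 0.22 (adjusted p = 0.000156) in SGK3KO cells at rest. The inhibitor gave -0.13 ± 0.17 (adjusted p = 0.659), which was not called.

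In b2, Trim36 with DMXAA was at 5.50, 4.21 and 6.79 CPM in dKO and 3.82, 3.45, 4.06 and 3.91 CPM in SGK1KO libraries, against 2.35, 1.497, 1.90 and 2.01 CPM in WT libraries. Resting levels were 5.72, 6.12 and 5.41 CPM in dKO, 4.67, 6.25 and 4.77 CPM in SGK1KO and 2.27, 1.81 and 1.96 CPM in WT libraries. No knockout library fell within the WT range. Differences from WT were 1.504 ± 0.21 (adjusted p = 3.41e-05) in dKO and 0.97 ± 0.20 (adjusted p = 0.00239) in SGK1KO cells with DMXAA, and 1.51 ± 0.23 (adjusted p = 0.000234) in dKO and 1.38 ± 0.23 (adjusted p = 0.000928) in SGK1KO cells at rest. DMXAA gave no called change of Trim36 in any line. Of the other 2 expressed cytoskeletal and neuronal members, Trim3 was above WT with DMXAA in dKO (0.32 ± 0.07), SGK3KO (0.26 ± 0.07) and inhibitor-treated cells (0.43 ± 0.07) of b1 and fell with DMXAA in WT cells (-0.33 ± 0.08), and Trim46, which organises axonal microtubules, was not called. Trim46 (mean 0.993 TPM) overlaps Krtcap2 (234 TPM) on the opposite strand, and strand was not stated for the counts.

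Trim47 was low and overlaps the more abundant Trim65 on the same strand (means of 0.577 and 5.65 TPM). Reads of the shared stretch could go to either gene. Trim47 differed from WT in SGK3KO cells of b1. Resting cells had it at 1.23, 2.02 and 1.02 CPM in SGK3KO and 0.638, 0.378 and 0.576 CPM in WT libraries, which did not overlap. With DMXAA it was at 0.729, 0.512, 1.14, 0.556 and 0.9 CPM in SGK3KO and 0.501, 0.277, 0.230, 0.561 and 0.434 CPM in WT libraries, which overlapped. The log2 fold changes were 1.42 ± 0.40 (adjusted p = 0.0175) at rest and 0.93 ± 0.31 (adjusted p = 0.0292) with DMXAA, and the fall with DMXAA within SGK3KO cells was -0.89 ± 0.35 (adjusted p = 0.0498). The call at rest is lost without WT library 2 or SGK3KO library 2 (adjusted p = 0.0916 and 0.169, range 0.0145 to 0.169). The call with DMXAA is lost without WT library 2 or 3 or SGK3KO library 3 or 5 (range 0.0196 to 0.107). The fall within SGK3KO cells is lost without any of 6 of the 8 libraries, the exceptions being SGK3KO library 3 at rest and library 3 with DMXAA (range 0.0231 to 0.376). Limma on log2(TPM + 0.1) and the joint fit end all 3 calls, and no filter and limma on log2(TPM + 0.5) end the difference with DMXAA and the fall. The compared groups alone end that of SGK3KO against WT with DMXAA. Adjusted p in these fits was 0.078 to 0.608 at rest, 0.0603 to 0.517 with DMXAA and 0.0592 to 0.527 for the fall. The difference with DMXAA was 0.32 with limma on log2(TPM + 0.5) and 0.53 on log2(TPM + 0.1). With DMXAA it was at 0.443, 0.343, 0.332, 0.513 and 0.278 CPM in dKO and 0.473, 0.289, 0.488, 0.634 and 0.518 CPM in inhibitor-treated libraries, overlapping WT. Its level in b2 was 0 to 0.627 CPM in dKO, 0 to 0.828 CPM in SGK1KO and 0.219 to 0.686 CPM in WT libraries with DMXAA. Resting ranges were 0.126 to 0.795 CPM in dKO, 0.296 to 1.72 CPM in SGK1KO and 0.379 to 0.647 CPM in WT libraries, and no difference was called.

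Trim16, which lacks a RING finger and takes part in clearing damaged lysosomes in human cells, differed from WT in opposite directions in the edited lines of b1. With DMXAA it was at 3.32, 2.37, 2.75, 2.94 and 2.26 CPM in dKO and 1.45, 1.16, 1.14, 1.14 and 0.965 CPM in SGK3KO libraries. Inhibitor-treated WT libraries had 2.04, 1.95, 2.43, 1.77 and 1.64 CPM, and WT libraries 1.59, 2.08, 1.58, 1.62 and 1.24 CPM. The dKO libraries lay above WT, a difference of 0.75 ± 0.17 (adjusted p = 0.000795). The SGK3KO libraries overlapped WT, with a difference of -0.47 ± 0.17 (adjusted p = 0.0431) that is lost without any of 8 of the 10 libraries (range 0.0202 to 0.154), WT library 5 and SGK3KO library 1 being the exceptions. At rest it was at 2.30, 2.37 and 1.96 CPM in SGK3KO and 3.02, 3.96 and 3.37 CPM in WT libraries, a difference of -0.64 ± 0.21 (adjusted p = 0.0495) that is lost without any 1 of the 6 libraries (range 0.0537 to 0.195). Both SGK3KO calls are also lost with no filter and in the joint fit, the call with DMXAA in the compared groups alone, and that at rest with limma on log2(TPM + 0.1). Adjusted p was then 0.083 to 0.236 with DMXAA and 0.0641 to 0.356 at rest. Trim16 fell with DMXAA, with a log2 change of -1.09 ± 0.19 (adjusted p = 1.88e-05) in WT and -0.91 ± 0.19 (adjusted p = 0.00034) in SGK3KO cells. In b2 it was at 1.44 to 3.51 CPM in dKO, 1.54 to 2.48 CPM in SGK1KO and 1.11 to 2.01 CPM in WT libraries with DMXAA. Resting ranges were 2.19 to 5.29 CPM in dKO, 3.11 to 4.50 CPM in SGK1KO and 1.56 to 3.49 CPM in WT libraries, and no difference was called.

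The remaining expressed members changed by less than 0.5 on the log2 scale wherever they were called. With DMXAA in b1, Trim35 fell in WT (-0.38 ± 0.06) and SGK3KO cells (-0.26 ± 0.06), as did Trim44, which lacks a RING finger (-0.29 ± 0.06 and -0.33 ± 0.06), and Trim37, mutated in human mulibrey nanism (-0.14 ± 0.05 and -0.22 ± 0.05). Trim59, a membrane-bound member, rose in both lines (0.33 ± 0.05 and 0.44 ± 0.05), Trim11 fell in WT cells (-0.22 ± 0.08) and Trim45 fell in SGK3KO cells (-0.42 ± 0.14). Against WT with DMXAA in b1, Trim35 was higher in dKO (0.36 ± 0.05) and SGK3KO cells (0.39 ± 0.05), and in SGK3KO cells at rest as well (0.27 ± 0.07). Trim11 was higher in dKO (0.22 ± 0.07), SGK3KO (0.20 ± 0.07) and inhibitor-treated cells (0.47 ± 0.07), and Trim59 was lower in dKO cells (-0.16 ± 0.05). Trim41, which overlaps the more abundant Rack1 on the opposite strand, was lower in SGK3KO (-0.16 ± 0.05) and higher in inhibitor-treated cells (0.19 ± 0.05). In b2, Trim37 was higher and Trim59 lower in SGK1KO than in WT cells with DMXAA (0.42 ± 0.12 and -0.25 ± 0.07), and Trim44 fell with DMXAA in SGK1KO cells (-0.44 ± 0.13).

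The double knockout was compared with WT cells under DMXAA in both batches, with separate libraries in each. Of the 32 expressed members, 27 had the same sign in b1 and b2, beside 62.4% of the 15919 genes tested in both, and Pearson's r across members was 0.923, a description over genes that are not independent. Calls in both batches were made for 6 members, of which Trim30a, Trim21, Trim12c, Trim36 and Trim23 had the same sign and Trim56 did not, and 8.42% of all genes were called in both. These 6 are 6 of the 17 members called in b1 and 6 of the 8 called in b2. Trim21 was lowered more in b1 (-2.12 ± 0.10) than in b2 (-0.92 ± 0.18), and Trim30a more in b2 (-5.00 ± 0.36) than in b1 (-3.83 ± 0.18), differences between batches that were not tested. For the DMXAA response of WT cells, 25 of the 32 members had the same sign in the batches, beside 68.3% of all genes (r = 0.768). Trim25 and Trim8 were called in both, as were 3.88% of all genes.

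**Figure D5:**
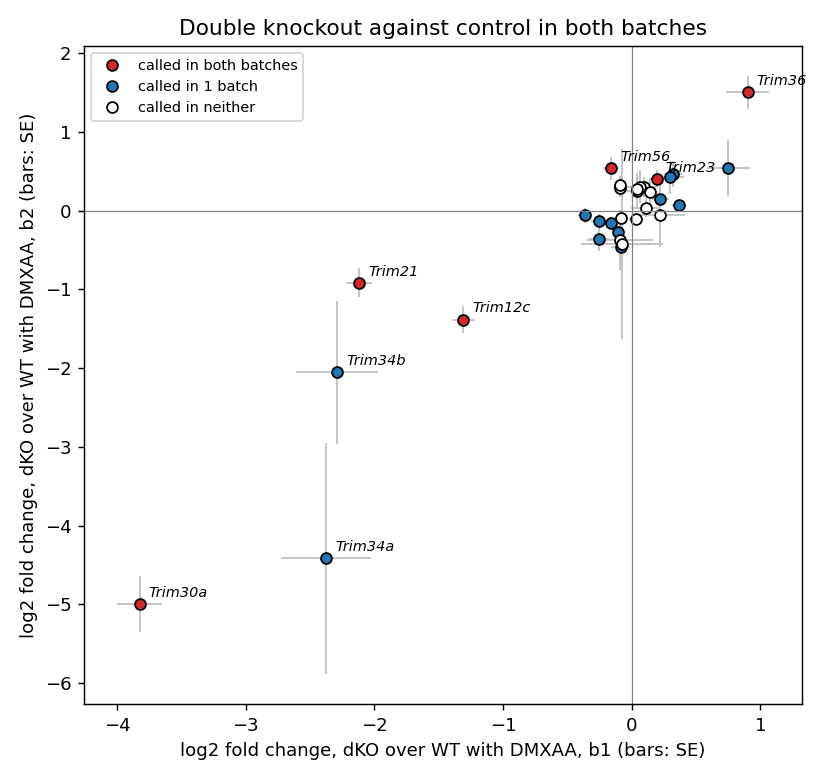
Log2 fold change of each of the 32 expressed members in dKO over WT cells with DMXAA in b1 (across) and b2 (up), with SE bars and colour for calls. Trim30a, Trim21, Trim12c, Trim34a and Trim34b lie far down and left, Trim36 lies up and right, and Trim56 has opposite signs.

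Responses were also compared between lines as a difference of differences. Trim21 in SGK3KO cells was the only member called, and no expressed member was called for SGK1KO or dKO in b2, where 0.451% and 0.782% of all genes were called by edgeR. At an unadjusted p under 0.05 there were 3 members for SGK3KO (beside 10.2% of all genes), 7 for SGK1KO (9.11%) and 4 for dKO (8.32%), Trim30a and Trim8 among both of the b2 sets. DESeq2 called 2 members and 269 genes in all for SGK1KO, and 2 members and 335 genes in all for dKO.

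Groups of libraries that did not overlap were frequent at 3 to 5 libraries a group. With DMXAA against rest, 21 expressed members had such groups in WT cells of b1 and 20 in SGK3KO cells, beside 34.8% and 33.2% of all genes. In b2 there were 12 in dKO, 13 in SGK1KO and 9 in WT cells, beside 21.1%, 17.1% and 16.7%. Against WT at rest there were 15 in SGK3KO (29.7%), 14 in SGK1KO (27.4%) and 11 in dKO cells (19.3%). Against WT with DMXAA there were 12 in dKO (19%), 12 in SGK3KO (15.8%) and 13 in inhibitor-treated cells (12.6%) of b1, and 13 in dKO (23.7%) and 11 in SGK1KO cells (16.4%) of b2.

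The genes that TRIM proteins work with were counted from lists. Of 15 tested sensors, adaptors and kinases, 9 were lower and 2 higher in dKO cells, and 9 lower and 1 higher in SGK3KO cells, against WT with DMXAA in b1 (medians -0.17 and -0.20, beside 0.00 for all genes). Of all genes 11.9% were lower and 14.5% higher in dKO, and 9.59% lower and 13.3% higher in SGK3KO cells. In b2, 7 were lower in dKO and 4 in SGK1KO cells with DMXAA, and none higher, where 6.41% and 4.07% of all genes were lower. Irf7, the interferon-induced transcription factor, was at 5.50 ± 1.12 CPM in dKO and 123 ± 13.5 CPM in WT cells with DMXAA in b1 (SD, n = 5 each, log2 fold change -4.48 ± 0.23, adjusted p = 2.19e-12). Ifih1, which encodes MDA5, the sensor Trim65 acts on, was at 156 ± 21.3 CPM in dKO and 385 ± 25.1 CPM in WT cells (log2 fold change -1.30 ± 0.12, adjusted p = 1.59e-08), and rose with DMXAA in SGK3KO cells by 5.62 ± 0.20 (adjusted p = 9.55e-16). Rises in this list were not particular to SGK3KO cells. With DMXAA in b1, 9 of the 15 rose and 3 fell in WT cells (all genes 17.9% up and 17.4% down). In SGK3KO cells 9 rose and 2 fell (all genes 16.4% up and 13.7% down).

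Of 9 E2 enzymes tested, 5 rose and none fell with DMXAA in WT cells of b1, where 17.9% of all genes rose and 17.4% fell. In WT cells of b2, 0 of 9 were called, beside 3.98% of all genes. Against WT with DMXAA in b1, 1 was lower in dKO (all genes 11.9% down), 2 in SGK3KO (9.59%) and 2 in inhibitor-treated cells (10.1%). In b2, 3 were lower in dKO (6.41%) and 1 in SGK1KO cells (4.07%) with DMXAA. None was higher in these comparisons. The gene lower in dKO cells of b1 was Ube2l6, an interferon-induced E2 for ISG15, at 19.1 ± 0.512 CPM in dKO and 56.1 ± 3.34 CPM in WT cells (-1.56 ± 0.09, adjusted p = 3.62e-14). In SGK3KO cells 5 of the 9 also rose with DMXAA and none fell (all genes 16.4% up and 13.7% down). Ube2w was among them, with a rise of 0.75 ± 0.08 (adjusted p = 8.18e-09). Of the TRIM proteins that carry other gene names, Pml was lower in dKO (-1.60 ± 0.11, adjusted p = 3.07e-12) and SGK3KO cells (-1.19 ± 0.11, adjusted p = 1.22e-09) against WT with DMXAA in b1, and Mid1 was lower in the same comparisons (-0.83 ± 0.17 and -0.62 ± 0.17).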

How the data were processed

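Poly-A RNA libraries of RAW264.7 cells were aligned with STAR 2.7.9a and quantified with StringTie 2.2.0, per the submitters' processing notes; the build was GRCm39, and the annotation is named only in the deposited tables. The authors deposited estimated counts per gene, given as whole numbers, and TPM per gene. Neither strand nor the division of reads between similar genes was stated for these counts, so values of Trim5, Trim12, Trim30 and Trim34 genes and of overlapping genes are uncertain. Counts seem to run at several per read pair, and 4 per pair were assumed for limits of 3 read pairs (12 counts), which cover counting error only. There were 1492 genes with a blank symbol.

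Counts were tested with edgeR 4.0.16 in R 4.3.3 (filterByExpr, TMM scaling, robust quasi-likelihood, group coefficients), within b1 (26 libraries) and within b2 (20 libraries), with Benjamini-Hochberg adjustment over all genes tested and a threshold of 0.05. Of the 68 members, 46 were tested in b1 and 42 in b2, and all 32 expressed members in both. CPM on TMM-scaled sizes was used within a gene, and TPM between genes. Of the 4 libraries of b3, 1 carried conflicting labels and was put in no group, and 3 entered 1 alternative. Groups follow the labels, which do not say whether replicates were separate cultures, so p-values measure the spread between these libraries, which may be technical.

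Values in every library were given for members with a called log2 change of at least 1 and for the 3 with the highest mean TPM, 12 in all. The members and lists were chosen with earlier results of these data known. Alternatives were DESeq2 1.42.0, RLE scaling, no filter, limma 3.58.1 on log2(TPM + 0.5) and log2(TPM + 0.1), a joint fit, the compared groups alone, leaving out each library, b2 without the 6 libraries whose log2 CPM rose with transcript length by over 0.1 a doubling (the 9 in which it fell by as much were kept), b3 joined to b2, and a replicate block in b1. The edgeR test was also tried on simulated counts. Promoters came from RefSeq tables.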

Additional observations from a re-analysis of the deposited data

Results flagged for a closer look

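In 4 of the 72 groups checked (12 members in the 6 groups of 4 or 5 libraries), 1 library lay far from the others, where chance gives about 1 in 20. Trim34a was at 0.0621 CPM in dKO library 4 with DMXAA in b1, with the other 4 libraries between 0.390 and 0.443 CPM. Trim65 was at 5.05 CPM in the same library, with the others between 6.57 and 7.05 CPM. Trim12c was at 9.37 CPM in SGK1KO library O with DMXAA, with the others between 11.4 and 11.7 CPM. Trim65 was at 14.4 CPM in SGK1KO library P with DMXAA, with the others between 9.82 and 10.3 CPM.

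The response of Trim21 to DMXAA differed between lines in b1: its log2 change was 1.07 ± 0.12 in SGK3KO and 1.90 ± 0.12 in WT cells, a difference of -0.83 (edgeR adjusted p = 0.00585).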

How the results depend on the processing

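No value of the 12 members described by library changed direction once called, under the alternatives run. Of their 78 called values, 64 kept the call without each library in turn and 14 lost it at least once. Among 192 values of these members, DESeq2 ended no call and added 16, RLE scaling added 4, the joint fit ended 14 and added 14, dropping the filter ended 9, limma ended 10 (with + 0.1) and 8 (with + 0.5), and the compared groups alone ended 8 of 191. Of 108 values in b2, joining b3 ended 4 and leaving out the 6 libraries ended 2. Counts of called members moved as follows. The joint fit gave 17 for dKO against WT with DMXAA in b2, 14, 10 and 5 for the responses of SGK1KO, dKO and WT in b2, 12 and 11 for SGK1KO against WT at rest and with DMXAA, 5 and 9 for SGK3KO against WT at rest and with DMXAA, and 0, 5 and 2 for the differences of response of SGK3KO, SGK1KO and dKO. DESeq2 gave 8 for the dKO response, 10 and 11 for SGK1KO against WT at rest and with DMXAA, and 2 for each difference of response in b2. Without the 6 libraries whose counts rose with length, dKO against WT with DMXAA had 13 and each difference of response in b2 had 1. The compared groups alone gave 2 and 5 for the responses of dKO and SGK1KO and 1 for the SGK1KO difference. Limma on TPM gave 3 for the dKO response with either pseudocount and 1 for the SGK1KO difference with 0.5, and joining b3 gave 4 for SGK1KO against WT with DMXAA. The causes were not tested.

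Leaving out 1 library gave 5 to 7 for SGK3KO against WT at rest, 2 to 5 for the dKO response (2 without dKO library I), 3 to 10 for SGK1KO against WT at rest (10 without SGK1KO library D), 4 to 9 for SGK1KO against WT with DMXAA (4 without WT library K or L), 5 to 8 for dKO against WT with DMXAA in b2 (5 without dKO library U), and 0 to 1 for the differences of response of SGK1KO (1 without SGK1KO library R) and dKO (1 without dKO library X). The replicate numbers of b1 did not pair the libraries (correlations of same-numbered deviations -0.242 to 0.177 over 15 pairs of groups). The replicate block gave 19 called members for the WT response, 17 for the SGK3KO response and for dKO against WT, 8 and 16 for SGK3KO against WT at rest and with DMXAA, and 13 for the inhibitor, where the fit without it gave 22, 19, 17, 8, 16 and 13 in that order. Among the 12 members it ended 1 call, that of Trim34a in the WT response (0.91, edgeR adjusted p = 0.106). In b2 no paired analysis was possible because library letters are not shared between groups. Values under about 0.2 CPM lie near 3 read pairs, and the b2 sizes of Trim34a, Trim34b and Trim47 are limited by that.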

Other observations

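The 3 grouped rerun libraries of b3 entered 1 alternative, joined to b2, and no other comparison. Library J could not be placed, since its labels conflict. Trim30a was at 5.86 TPM in SGK1KO library S with DMXAA, 2.55 and 1.83 TPM in dKO libraries V and W with DMXAA, and 26.0 TPM in library J. Trim12c was at 7.43 TPM in library S, 6.22 and 5.22 TPM in libraries V and W, and 14.7 TPM in library J. Trim36 was at 1.66 TPM in library S, 2.05 and 1.84 TPM in libraries V and W, and 0.562 TPM in library J.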
